A study of Mus musculus with 18 samples.

Results

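The CC chemokine genes Ccl5, Ccl9, Ccl6, Ccl3 and Ccl4 lie side by side in a stretch of mouse chromosome 11. Their expression was followed by RNA sequencing in differentiated 3T3-L1 adipocytes. The cells carried vectors meant to raise or lower the transcription factor IRF3, or control vectors. The stretch reaches from just below Ccl5 to just above Ccl4 on build mm9. Of the 27473 gene models counted, 6 lie wholly inside it, and 5 of these had at least 20 counts summed over the 18 libraries. They are Ccl5 (337 counts), Ccl9 (25174), Ccl6 (17965), Ccl3 (467) and the gene model uc007kpk.2 (2351). The sixth, Ccl4, had 6 counts and is left out by the count minimum, while the lowest total among the 5 kept was that of Ccl5. Membership follows from position and total count, in a stretch that was chosen with earlier results of these data known.

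The 18 libraries form 6 groups of 3, from cells of the clonal mouse line 3T3-L1 at passage 15, all transduced with lentivirus for 6 days after differentiation. Irf3_2D cells carried a vector labelled as overexpressing Irf3 (the labels leave 2D unexplained), and EGFP cells carried a green fluorescent protein vector as their control. In the other arm, shIrf3 cells carried a short hairpin RNA against Irf3 and shLuc cells a control hairpin against luciferase. Either hairpin was combined with LPS (lipopolysaccharide, from the outer membrane of bacteria), giving shIrf3_LPS and shLuc_LPS, or used without it. The labels state 6 days of LPS for the knockdown cells and give no duration of their own for shLuc_LPS. Separate cultures are not named for the 3 libraries of a group, and the p-values therefore rest on a spread between libraries that may be technical.

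CC chemokines are small secreted proteins with a pair of adjacent cysteines that draw leukocytes to a tissue through G protein-coupled receptors. LPS is sensed by Toll-like receptor 4, which signals through NF-kB and, by a separate adaptor, through IRF3, a factor that on activation enters the nucleus and switches on interferon beta and a set of antiviral and chemokine genes. In obese adipose tissue, chemokines made by adipocytes and stromal cells are known for their part in recruiting macrophages and T cells.

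The deposited table pairs no gene symbol with its identifiers, and names were given only to models in the stretch, as the names stated for it. On build GRCm38 the span of Ccl9 (5720 bases), Ccl6 (5202 bases) and Ccl3 (1536 bases) in RefSeq equals that of the models uc007kpj.1, uc007kpm.1 and uc007kpn.1. Ccl4 (2100 bases) in GENCODE equals uc007kpp.1, and Ccl5 (4741 bases) exceeds uc007kpi.2 (4740 bases) by a single base. The span of uc007kpk.2 (41633 bases) equals that of the long noncoding RNA E230016K23Rik in RefSeq. It is called by its identifier here. On mm9, Ccl5 lies at 83339281 to 83344020 (3 exons, minus strand), Ccl9 at 83386419 to 83392138 (4 exons, minus), Ccl6 at 83401388 to 83406589 (4 exons, minus) and Ccl4 at 83476086 to 83478185 (3 exons, plus). Ccl3 lies at 83461345 to 83462880 on the minus strand and is counted as 1 block of 1536 bases, whereas its GENCODE exons add up to 766 bases, so intron reads are included in its count. The model uc007kpk.2 has 9 exons between 83395563 and 83437195 on the plus strand, and the whole of Ccl6 lies within its span, with an overlap of 0 bases between the exons of both.

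**Figure D1:**
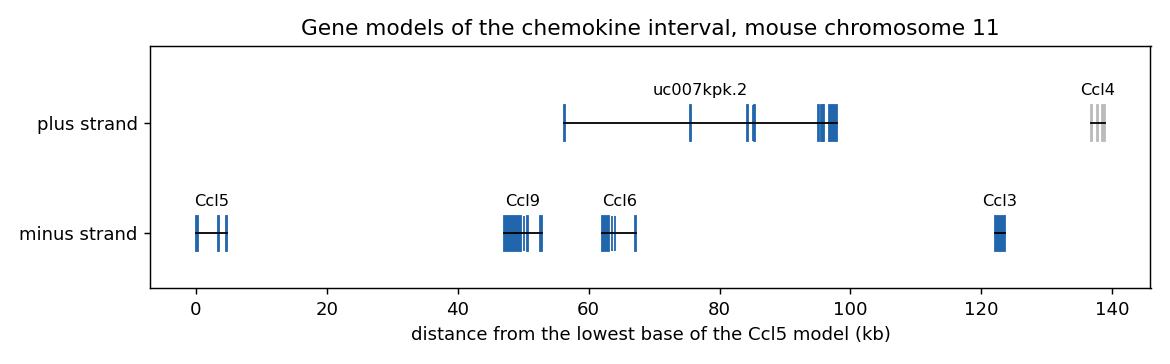
Gene models of the stretch by strand, with exons as blocks and the distance in kb from the lowest base of the Ccl5 model on the horizontal axis. Blue models are the 5 with at least 20 counts, the grey one is Ccl4, and Ccl6 sits inside the span of uc007kpk.2 on the opposite strand.

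The 250 bases upstream of the annotated start, as RefSeq gives them on build GRCm38.p6, are shown for Ccl9 and Ccl6, neighbours that were both abundant and whose levels went together across libraries, and for Ccl3, which was near 0 without LPS. Ccl5 and Ccl4 are not shown. All 3 are read 5′ to 3′ on the minus strand, from chr11:83578637-83578886 for Ccl9, chr11:83593088-83593337 for Ccl6 and chr11:83649379-83649628 for Ccl3. Capitals mark bases that Ccl9 and Ccl6 share in their best local alignment.
Ccl9: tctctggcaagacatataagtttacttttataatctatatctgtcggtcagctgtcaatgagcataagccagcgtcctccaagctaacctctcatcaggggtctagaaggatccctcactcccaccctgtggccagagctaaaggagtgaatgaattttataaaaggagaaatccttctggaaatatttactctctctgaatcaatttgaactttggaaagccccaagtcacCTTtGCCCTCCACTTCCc
Ccl6: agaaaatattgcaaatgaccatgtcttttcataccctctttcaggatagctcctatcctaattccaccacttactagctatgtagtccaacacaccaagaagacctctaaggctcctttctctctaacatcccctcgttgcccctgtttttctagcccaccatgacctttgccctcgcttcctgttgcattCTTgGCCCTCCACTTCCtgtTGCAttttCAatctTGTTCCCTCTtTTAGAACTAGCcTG
Ccl3: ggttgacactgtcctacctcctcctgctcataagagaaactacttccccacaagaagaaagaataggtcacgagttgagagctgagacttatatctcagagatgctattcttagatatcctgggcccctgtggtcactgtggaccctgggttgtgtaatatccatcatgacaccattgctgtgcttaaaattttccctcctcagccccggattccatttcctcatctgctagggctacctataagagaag

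In windows that also take in the first 50 bases downstream of the start, the alignment of Ccl9 with Ccl6 covered 67 base pairs. Of these 58 were identical (86.6%, gaps not counted). The alignment ran from -18 to 49 in Ccl9 and from -59 to 15 in Ccl6, counted from the start. The longest run shared by both upstream stretches was 13 bases, which 3 of 32851 upstream stretches in the table hold, those of Ccl9 and Ccl6 included. The best alignments of Ccl3 covered 11 base pairs with Ccl9 and 12 with Ccl6. The motifs searched were the IRF core (GAAA, any 2 bases, GAAA), the kB motif by its name, TGANTCA (AP-1) and TTNNGNAA (C/EBP), each on both strands, and TATAAA on the given strand. The IRF core had 0 matches in these 3 stretches and occurs in 2.98% of all. Ccl9 had a kB match starting at -35, which overlaps a TTNNGNAA match at -38, a TGANTCA match at -53, another TTNNGNAA match at -75 and a TATAAA match at -92. Ccl6 had 0 matches to the 5 motifs, and Ccl3 had a TTNNGNAA match at -100. Of all stretches, 3.9% hold the kB motif, 6.75% TGANTCA, 36.8% TTNNGNAA and 7.59% TATAAA. A match is a description of the letters and not a site of binding.

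Totals ran from 22143302 to 34368259 counts per library. In 2 groups, libraries stand apart from their replicates. By the chi-square of counts over its degrees of freedom, Irf3_2D replicate 2 was at 112 and 91.7 from its replicates, and the other pair at 10.8. The shLuc libraries differed among themselves by 55.9 to 350, and mitochondrial gene models held 14.2% of the counts in shLuc replicate 1, against 2.88% and 5.19% in replicates 2 and 3. EGFP pairs ranged from 24.3 to 34.2, and pairs in the other groups from 3.38 to 15.6. The level of Irf3 itself and of adipocyte and macrophage marker genes was not analysed here. Those genes could not be found by name, and spans were matched only for the models in the stretch.

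Ccl9 and Ccl6 made up most of the counts of the cluster in every group, and they lay within a factor of 2 of each other per base of exon. Levels are given in CPM, read counts scaled to a common library size over all 18 libraries, and between genes as CPM per kilobase of exon (RPKM). Errors are SD for levels and SE for log2 fold changes. In shIrf3_LPS cells Ccl6 averaged 25.7 ± 1.79 RPKM, Ccl9 16.7 ± 1.42, Ccl5 1.59 ± 0.425 and Ccl3 0.901 ± 0.129 (SD, n = 3), and in shLuc_LPS cells these levels were 33.0 ± 1.66, 18 ± 0.892, 1.46 ± 0.274 and 2.42 ± 0.272 RPKM. Per base, Ccl6 was thus above Ccl9 in the mean of both groups, although it had fewer counts. That order rests on the exon lengths of the models, 3008 bases for Ccl9 and 1436 for Ccl6. GENCODE also lists shorter forms of both genes, and which forms were expressed was not examined. The Ccl3 values are per kilobase of its whole block, introns included, so they are not ranked against the other genes. In Irf3_2D cells Ccl6 averaged 38.0 ± 11.9, Ccl9 22.9 ± 4.65 and Ccl5 3.29 ± 0.640 RPKM.

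**Figure D2:**
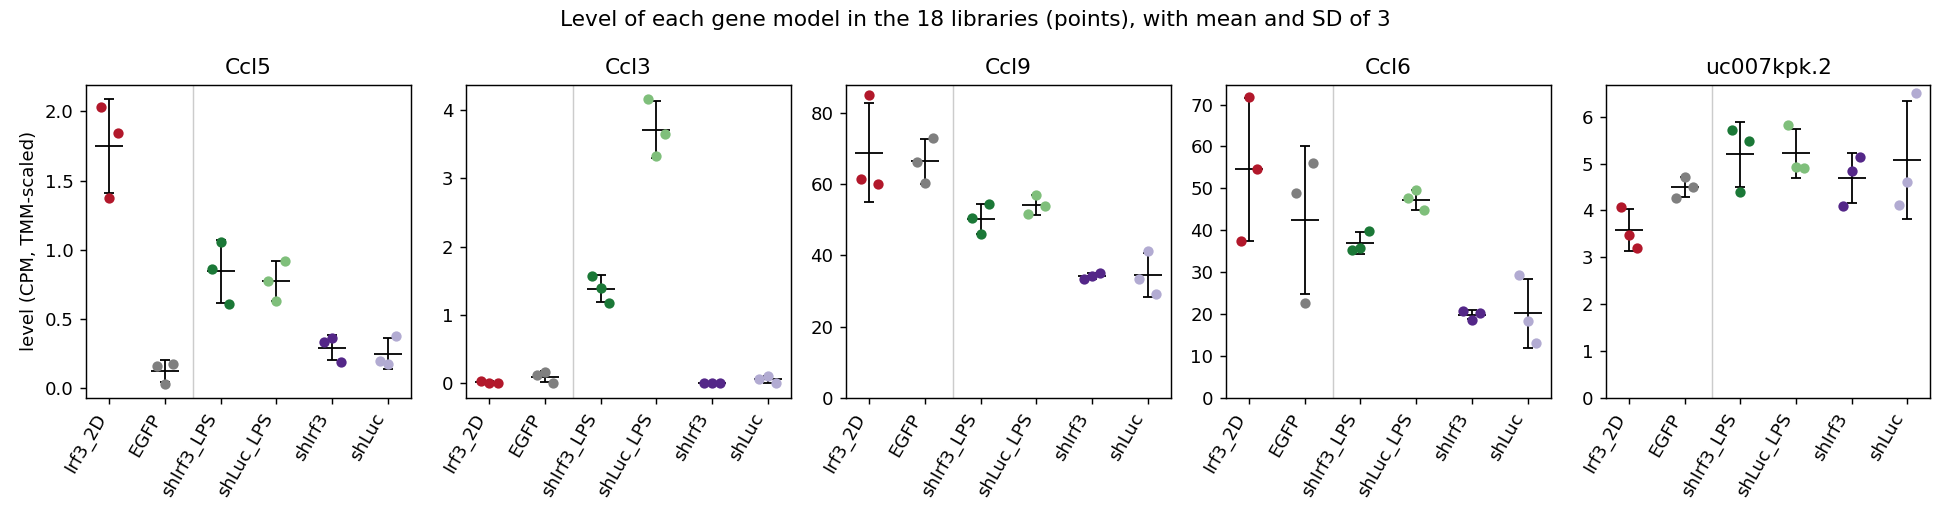
CPM of each gene model (vertical axis, 1 panel per model) in the 6 groups, with a point per library and the mean ± SD of 3. Ccl5 stands highest in Irf3_2D, at 1.37 to 2.03 CPM, and Ccl3 in shLuc_LPS, at 3.33 to 4.16 CPM, while uc007kpk.2 stays between 3.20 and 6.51 CPM.

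The question of the overexpression arm is which genes change under the Irf3_2D vector, without LPS. Ccl5, also called RANTES, a chemokine that attracts T cells and monocytes and a textbook target of IRF3, was the member that rose. It had 65, 28 and 49 counts (2.03, 1.37 and 1.84 CPM) in Irf3_2D replicates 1 to 3, against 4, 1 and 4 counts (0.161, 0.0339 and 0.177 CPM) in EGFP replicates 1 to 3. Every Irf3_2D library was above every EGFP library. Of the members tested, 2 had groups without overlap (Ccl5 and uc007kpk.2), as did 16.6% of all gene models tested. The edgeR log2 fold change was 3.85 ± 0.44 (edgeR adjusted p = 0.0122), and the ratio of CPM from summed counts was 15.4, with a 95% interval from 7.88 to 34.3 that covers counting error only. In bulk RNA, more cells that express a gene and more RNA per cell cannot be told apart.

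The call of Ccl5 depended on single libraries, its size less so. Without EGFP replicate 2, EGFP replicate 3 or Irf3_2D replicate 1 the edgeR adjusted p was 0.0706, 0.0686 or 0.0516, at log2 fold changes of 3.34, 4.18 and 3.72. Without Irf3_2D replicate 2, the library that stands apart, the log2 fold change was 3.98 (edgeR adjusted p = 0.000162). Ccl5 passed the low-count filter through the Irf3_2D libraries, since 0 of the 3 EGFP libraries reached its cutoff of 0.389 CPM before scaling.

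Ccl9 and Ccl6, the rodent ligands of CCR1 that are also known as MRP-2 and MRP-1, were not called with overexpression. Ccl9 had 61.5, 85.0 and 60.1 CPM in Irf3_2D, against 66.1, 60.3 and 72.9 CPM in EGFP, a log2 fold change of 0.05 ± 0.16 (edgeR adjusted p = 0.972). Ccl6 had 37.5, 71.7 and 54.5 CPM in Irf3_2D, against 48.9, 22.5 and 56.0 CPM in EGFP (log2 fold change 0.36 ± 0.33, edgeR adjusted p = 0.829). For both genes the groups overlapped, and Irf3_2D replicate 2 held the highest value of the 6 libraries. For uc007kpk.2 the 3 Irf3_2D libraries (3.20 to 4.07 CPM) lay below the 3 EGFP libraries (4.27 to 4.71 CPM), with a log2 fold change of -0.33 ± 0.18 (edgeR adjusted p = 0.608). Ccl3, the macrophage inflammatory protein 1 alpha, had 1 count over the 3 Irf3_2D libraries and 8 over the 3 EGFP libraries and was below the filter. Of the 4 members tested, 1 was called, and it was higher. Over all 13931 gene models tested, 1.45% were called, with 0.811% higher. The called member, Ccl5, passed the low-count filter through the Irf3_2D libraries, so this count is no support in itself.

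With LPS, Ccl3, Ccl5, Ccl6 and Ccl9 rose with either hairpin, and uc007kpk.2 did not pass the test with either. Over all 14970 gene models tested, 8.72% were called in shLuc_LPS against shLuc and 8.01% in shIrf3_LPS against shIrf3, with 4.27% and 4.17% higher. The 4 chemokine genes also had groups without overlap, as 9.99% and 13% of all gene models had in that direction. Ccl3 and Ccl5 passed the low-count filter of this arm through the LPS groups. At the cutoff of 0.357 CPM before scaling, Ccl3 had 0 libraries without LPS and Ccl5 had 1, so the count of members that rose is no support in itself, and no median over the members is given.

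Ccl3 had the largest fitted LPS response of the cluster. In control cells it had 123, 106 and 107 counts (4.16, 3.33 and 3.64 CPM) in shLuc_LPS, against 2, 3 and 0 counts in shLuc. The edgeR log2 fold change was 5.88 ± 0.37 (edgeR adjusted p = 7.93e-08), and the ratio of CPM from summed counts was 62.7, with a 95% counting interval from 26.6 to 194. The fitted value rests on few shLuc counts: it was 6.53 without shLuc replicate 2 and 5.37 without shLuc replicate 3, called in both cases. In knockdown cells it had 51, 37 and 29 counts (1.57, 1.4 and 1.18 CPM) in shIrf3_LPS and 0 counts in each of the 3 shIrf3 libraries (edgeR adjusted p = 2.43e-06). The shIrf3_LPS level was 37.9-fold above a floor of 3 counts over the shIrf3 group. With the counting error of both groups, the exact 95% interval of the ratio of shIrf3_LPS to shIrf3 begins at 30.3. Ccl3 was thus at or near 0 in every library without LPS and present in all 6 with it.

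Ccl5 rose with either hairpin, from a low level. It had 23, 20 and 27 counts (0.778, 0.629 and 0.920 CPM) in shLuc_LPS, against 6, 5 and 10 counts (0.201, 0.177 and 0.376 CPM) in shLuc, a log2 fold change of 1.63 ± 0.36 (edgeR adjusted p = 0.00828). It had 28, 28 and 15 counts (0.864, 1.06 and 0.609 CPM) in shIrf3_LPS, against 8, 11 and 5 counts (0.332, 0.360 and 0.189 CPM) in shIrf3, a log2 fold change of 1.56 ± 0.35 (edgeR adjusted p = 0.0102). Groups with LPS did not overlap with those without. The call in knockdown cells ended without shIrf3 replicate 3 (log2 fold change 1.32, edgeR adjusted p = 0.0636) and without shIrf3_LPS replicate 2 (1.37, 0.0591).

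Ccl9, far more abundant, also rose with either hairpin. It had 51.6, 56.9 and 53.9 CPM in shLuc_LPS, against 33.5, 41.1 and 29.0 CPM in shLuc (log2 fold change 0.66 ± 0.10, edgeR adjusted p = 0.000257). It had 50.4, 45.9 and 54.4 CPM in shIrf3_LPS, against 33.3, 34.1 and 35.1 CPM in shIrf3 (log2 fold change 0.60 ± 0.10, edgeR adjusted p = 0.000699). No LPS library was as low as any library without LPS of the same hairpin. Ccl9 kept its call in all 22 alternatives run for each of these comparisons, with log2 fold changes from 0.55 to 0.77 in control cells and from 0.54 to 0.66 in knockdown cells.

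The fitted rise of Ccl6 was larger than that of Ccl9, a difference that was not tested. It had 47.6, 49.6 and 44.8 CPM in shLuc_LPS, against 29.2, 18.3 and 13.2 CPM in shLuc, a log2 fold change of 1.23 ± 0.22 (edgeR adjusted p = 0.00517). It had 35.3, 35.7 and 39.9 CPM in shIrf3_LPS, against 20.7, 18.6 and 20.2 CPM in shIrf3, a log2 fold change of 0.94 ± 0.22 (edgeR adjusted p = 0.0258). LPS libraries were again above the others, but shLuc replicate 1 was well above replicates 2 and 3. That library also holds the high mitochondrial share given above. With mitochondrial gene models left out of the fit, the log2 fold change in control cells was 1.23 (edgeR adjusted p = 0.00505). Any other part of that share in the Ccl6 value was not tested. Without shLuc replicate 1 the log2 fold change in control cells was 1.61 (edgeR adjusted p = 3.12e-09). The call in knockdown cells ended without any one of the 6 libraries compared, where the log2 fold change lay from 0.89 to 0.98 and the edgeR adjusted p from 0.0627 to 0.0903. It was far below the threshold when those 6 libraries were fitted alone (0.95, edgeR adjusted p = 2.76e-09), without shLuc replicate 1 (0.95, 5.23e-07) and with library totals only (0.99, 0.000123).

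The model uc007kpk.2 was not called with LPS. It had 4.90 to 5.82 CPM in shLuc_LPS, against 4.12 to 6.51 CPM in shLuc (log2 fold change 0.05 ± 0.17, edgeR adjusted p = 0.919), and 4.39 to 5.71 CPM in shIrf3_LPS, against 4.10 to 5.15 CPM in shIrf3 (0.19 ± 0.17, edgeR adjusted p = 0.571). These ranges overlapped for both hairpins. For Ccl6, which lies within its span, the ranges with and without LPS were apart for both hairpins.

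**Figure D3:**
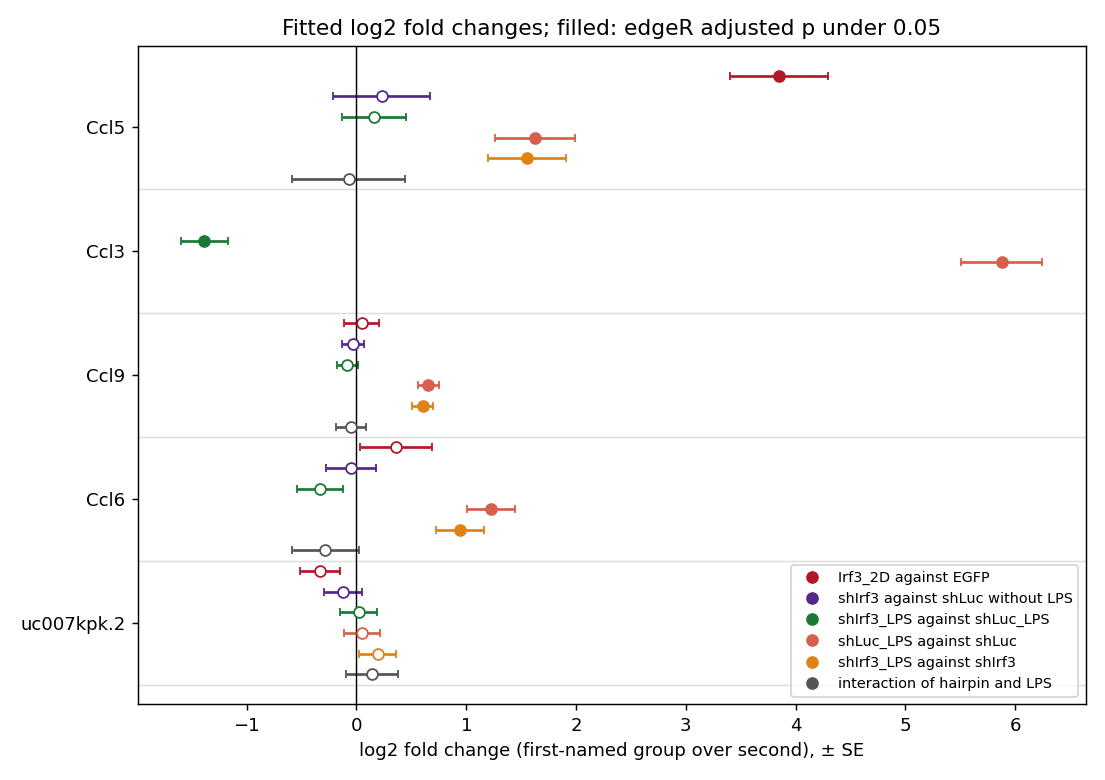
Fitted log2 fold change with its standard error for each member (rows) and comparison (colours), with filled points at an edgeR adjusted p under 0.05. For the interaction it is the LPS response of the shIrf3 cells minus that of the shLuc cells. For Ccl3, comparisons with shIrf3, where it had 0 counts, and with overexpression, where it was not tested, are left out, and its value in shLuc_LPS against shLuc, 5.88, lies farthest to the right.

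Knockdown under LPS asks how far the LPS state of a gene changes with a hairpin against Irf3. Ccl3 fell. It had 1.57, 1.4 and 1.18 CPM in shIrf3_LPS, against 4.16, 3.33 and 3.64 CPM in shLuc_LPS, so that the highest shIrf3_LPS library was below the lowest shLuc_LPS library. The log2 fold change was -1.38 ± 0.21 (edgeR adjusted p = 0.00137), and the ratio of CPM from summed counts was 0.379, with a 95% counting interval from 0.304 to 0.469. The call held in all 22 alternatives, with log2 fold changes from -1.50 to -1.28.

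The other members were not called in this comparison. Ccl6 was lower in every shIrf3_LPS library (35.3 to 39.9 CPM) than in any shLuc_LPS library (44.8 to 49.6 CPM), with a log2 fold change of -0.33 ± 0.21 (edgeR adjusted p = 0.421). Fitted from the 6 libraries compared alone it was called, at -0.34 (edgeR adjusted p = 0.000996), and likewise without shLuc replicate 1, which enters only the shared spread and scaling (-0.33, edgeR adjusted p = 0.0134). The call for Ccl6 thus turned on which libraries set the spread, while its fold change stayed from -0.39 to -0.30. Ccl5 had a log2 fold change of 0.16 ± 0.29 (edgeR adjusted p = 0.819) and Ccl9 of -0.08 ± 0.10 (edgeR adjusted p = 0.691), both with overlapping groups. That of uc007kpk.2 was 0.02 ± 0.17 (edgeR adjusted p = 0.965). Of the 5 members 1 was called, and it was lower. Over all 14970 gene models 8.2% were called, with 3.31% lower. Groups without overlap, lower with knockdown, were seen for Ccl3 and Ccl6 and for 20.8% of all gene models.

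Without LPS, 0 of the 5 members were called in shIrf3 against shLuc by edgeR, DESeq2 or limma-voom, where 8.56% of all gene models were called by edgeR. DESeq2 gave no adjusted p for Ccl5 here, so it could not call that gene. At an unadjusted p under 0.05, where 23% of all gene models lay, there was 1 member, Ccl3, with 0 counts over the 3 shIrf3 libraries and 5 over the 3 shLuc libraries (edgeR adjusted p = 0.119). Ccl5 had a log2 fold change of 0.23 ± 0.44, Ccl9 of -0.03 ± 0.10 and uc007kpk.2 of -0.12 ± 0.17 (edgeR adjusted p = 0.815, 0.891 and 0.731). Ccl6 had 20.7, 18.6 and 20.2 CPM in shIrf3, inside the range of the shLuc libraries given above, with a log2 fold change of -0.05 ± 0.22 (edgeR adjusted p = 0.924). Without shLuc replicate 1 it was 0.34 (edgeR adjusted p = 0.0339), so that the direction turned and the gene was called higher. The median log2 fold change of the 5 members was -0.05 here and -0.08 under LPS, where the medians of all gene models were -0.02 and 0.00.

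Whether the LPS response differed between hairpins was tested as an interaction. EdgeR, DESeq2 and limma-voom called 0 of the 5 members, and 0 of the 5 had an unadjusted edgeR p under 0.05. Over all 14970 gene models edgeR called 0%, and 5.66% had an unadjusted p under 0.05. The difference of the LPS responses, shIrf3 minus shLuc, was -0.07 ± 0.52 for Ccl5, -0.05 ± 0.14 for Ccl9, -0.28 ± 0.31 for Ccl6 and 0.14 ± 0.24 for uc007kpk.2 (log2, edgeR adjusted p = 0.997, 0.997, 0.986 and 0.997). For Ccl6 it was -0.67 without shLuc replicate 1 (edgeR adjusted p = 0.0692), the lowest over its alternatives. For Ccl3 the edgeR adjusted p was 0.918. Its size is not given, because Ccl3 was at 0 in every shIrf3 library and a fitted value then depends on the prior count. A difference in LPS response was thus not shown for any member, which does not show that the responses were alike.

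Ccl9 and Ccl6 went together across libraries, with the ratio of the pair shifting between groups. Over the 18 libraries their log2 CPM correlated with Pearson's r = 0.854, given as a description, since the points share groups and library effects. With group means taken out r was 0.561. Among 13131 gene models with at least 1 CPM in 3 libraries, Ccl9 was the third closest to Ccl6, and Ccl6 ranked 86 for Ccl9. The other pairs of members had r from -0.433 to 0.502.

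The ratio of Ccl6 to Ccl9 counts within a library does not depend on library scaling. It was 0.701, 0.777 and 0.734 in shIrf3_LPS, against 0.923, 0.871 and 0.832 in shLuc_LPS, and the groups did not overlap. It was 0.622, 0.545 and 0.576 in shIrf3, below each shIrf3_LPS library, and 0.873, 0.444 and 0.453 in shLuc, where replicate 1 stands apart. In Irf3_2D it was 0.610, 0.844 and 0.907, against 0.740, 0.374 and 0.768 in EGFP, with overlap and with EGFP replicate 2 lowest of all 18. These ratios were looked at after the levels had been seen and carry no test.

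**Figure D4:**
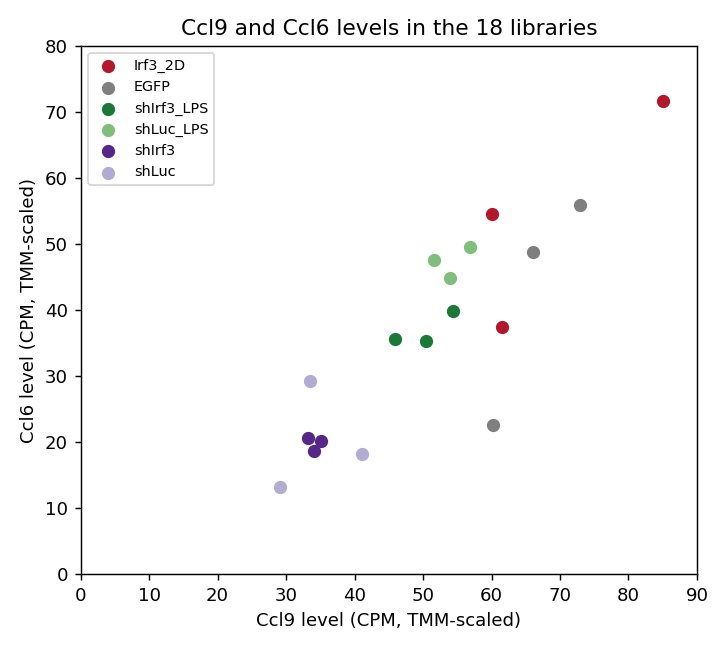
CPM of Ccl6 (vertical axis) against CPM of Ccl9 (horizontal axis) in the 18 libraries, coloured by group. The shIrf3 and shLuc libraries without LPS hold the lowest Ccl9 levels (29.0 to 41.1 CPM), the LPS libraries lie above them on both axes, and EGFP replicate 2 falls low for Ccl6 at 22.5 CPM.

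Ordered by mean level over the 6 groups, Ccl5 ran from Irf3_2D (1.75 ± 0.340 CPM) through shIrf3_LPS (0.844 ± 0.226), shLuc_LPS (0.775 ± 0.146), shIrf3 (0.294 ± 0.0916) and shLuc (0.252 ± 0.109) to EGFP (0.124 ± 0.0784). Neighbours in that order overlapped within the LPS pair and within the pair without LPS, and the highest EGFP and the lowest shLuc library both stood at 0.177 CPM. Ccl3 ran from shLuc_LPS (3.71 ± 0.418) to shIrf3_LPS (1.38 ± 0.198), and the other 4 groups, all at or below 0.169 CPM in every library, overlapped. Ccl9 was highest in Irf3_2D (68.9 ± 13.99) and EGFP (66.4 ± 6.31), then shLuc_LPS (54.1 ± 2.68), shIrf3_LPS (50.2 ± 4.26), shLuc (34.6 ± 6.12) and shIrf3 (34.2 ± 0.949). For Ccl9 each of these 3 pairs overlapped within itself and not with the next. Ccl6 ran from Irf3_2D (54.6 ± 17.1) through shLuc_LPS (47.3 ± 2.39), EGFP (42.5 ± 17.6) and shIrf3_LPS (37.0 ± 2.57) to shLuc (20.2 ± 8.20) and shIrf3 (19.8 ± 1.10). For Ccl6 neighbours in that order overlapped, except that shIrf3_LPS lay wholly above shLuc. Whether the arms were cultured and sequenced together is not stated, so differences between arms were not tested.

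Across the 18 libraries, 2 other gene models had the pattern most like that of Ccl5. The model uc008ycz.1 on chromosome 5 (mm9, 92775667 to 92777880) had Pearson's r = 0.906 in log2 CPM, and uc008faa.2 on chromosome 18 (mm9, 60453034 to 60462670) had r = 0.886, as the highest of 13131. The first averaged 4.99 ± 1.59 CPM in Irf3_2D and 0.351 ± 0.466 in EGFP, 1.61 ± 0.314 in shIrf3_LPS and 0.943 ± 0.178 in shLuc_LPS, and 0.280 ± 0.107 in shIrf3 and 0.192 ± 0.0942 in shLuc. The second averaged 17.3 ± 3.83 CPM in Irf3_2D and 5.6 ± 2.38 in EGFP, a smaller relative difference than that of the first. It averaged 11.5 ± 0.625 CPM in shIrf3_LPS and 10.4 ± 0.47 in shLuc_LPS, and 6.59 ± 1.94 in shIrf3 and 7.47 ± 1.63 in shLuc. The files give no name for either model.

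Ccl4, macrophage inflammatory protein 1 beta, was close to undetected. It had 1, 2 and 0 counts in Irf3_2D and 0 in each EGFP library, 1, 1 and 0 in shIrf3_LPS and 0 in each shLuc_LPS library, and 1, 0 and 0 in shIrf3 and 0 in each shLuc library. All 6 groups were at or under 3 counts, which is the limit that a count of 0 allows, so no difference was detectable at this depth.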

How the data were processed

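The authors deposited raw read counts per gene model for 18 libraries, whole numbers with no normalization, with each model's exons and exon length per the file headers. TruSeq RNA v2 libraries, whose reads carry no strand, were prepared after rRNA removal, per the labels' protocols. TopHat2 2.0.14, featureCounts 1.4.6 and build mm9 are named per the submitters' processing notes, with settings not given in the sources used here. Reads of overlapping genes on opposite strands therefore cannot be told apart where exons overlap.

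Samples were grouped by their titles. After filterByExpr and TMM scaling, edgeR 4.0.16 in R 4.3.3 gave robust quasi-likelihood tests, adjusted by Benjamini-Hochberg across every gene model tested and called under 0.05. The Irf3_2D and EGFP libraries were fitted together, and the other 12 libraries in another fit with 5 contrasts. The standard error was derived as the fold change on the log2 scale over the root of F. Levels are CPM with TMM factors over all 18 libraries, and log2 CPM used a prior count of 2. Intervals are exact binomial (95%), and they and the floor of 3 counts cover counting error only. The edgeR step was tested on simulated data. Alternatives tried were RLE factors, library totals only, other low-count filters, limma-voom (limma 3.58.1), DESeq2 1.42.0, no mitochondrial models, the replicate number as a block, other sets of libraries in the fit and each library left out in turn. All replicate pairs differed beyond sampling noise (chi-square per degree of freedom from 3.38).

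Of the 27473 identifiers, 0 matched the gene name tables, and the marker lists were not applied. Upstream sequences are RefSeq's on GRCm38.p6, matched by symbol for 3 of the 5 named genes. The members, lists and naming rule (every member, and the 2 models most like Ccl5) were chosen with earlier results of these data known.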

Additional observations from a re-analysis of the deposited data

How the results depend on the processing

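Of 598 alternative fold changes of members, 556 kept their direction and side of the threshold, 13 lost the call, 2 gained it with the same sign and 27 changed sign. None of those that changed sign was called in the main analysis, and 1 was called after the change: Ccl6 in shIrf3 against shLuc without shLuc replicate 1 (0.335, edgeR adjusted p = 0.0339). With each library left out in turn, the number of members called ranged from 0 to 1 in Irf3_2D against EGFP, from 0 to 1 in shIrf3 against shLuc, from 1 to 2 in shIrf3_LPS against shLuc_LPS and from 2 to 4 in shIrf3_LPS against shIrf3. It stayed at 4 in shLuc_LPS against shLuc and at 0 for the interaction. Fitted from the 6 libraries compared alone, 2 members were called in shIrf3_LPS against shLuc_LPS.

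The values after a change of sign lay from -0.136 to 0.335. For Ccl9 the log2 fold change with a library left out ranged from -0.136 to 0.137 in Irf3_2D against EGFP, from -0.137 to 0.10 in shIrf3 against shLuc (0.002 with library totals only) and from -0.168 to 0.053 for the interaction. For Ccl6 in shIrf3 against shLuc it ranged from -0.277 to 0.335 (0.019 with library totals only, 0.018 with limma-voom). For Ccl5 it ranged from -0.021 to 0.332 in shIrf3_LPS against shLuc_LPS and from -0.457 to 0.148 for the interaction. For uc007kpk.2 it ranged from -0.239 to 0.097 in shIrf3 against shLuc, from -0.062 to 0.128 in shIrf3_LPS against shLuc_LPS (-0.005 with all 18 libraries in one fit), from -0.072 to 0.267 in shLuc_LPS against shLuc and from -0.077 to 0.265 for the interaction. The cause was not tested.

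Over all gene models, the calls of Irf3_2D against EGFP ranged from 5 without EGFP replicate 3 to 1021 without Irf3_2D replicate 2, around 202. They ranged from 386 to 2744 in shIrf3 against shLuc, from 378 to 2848 in shIrf3_LPS against shLuc_LPS, from 668 to 2132 in shLuc_LPS against shLuc, from 621 to 2890 in shIrf3_LPS against shIrf3 and from 0 to 16 for the interaction. The call of Ccl6 in shIrf3_LPS against shIrf3 was also lost without the low-count filter (edgeR adjusted p = 0.0657) and with all 18 libraries in one fit (0.128). With a filter of at least 1 CPM in 3 libraries, Ccl5 was not tested in the knockdown arm. With the replicate number as a block (replicate block), 1 member was called in Irf3_2D against EGFP, 1 in shIrf3_LPS against shLuc_LPS, 4 in each LPS comparison and 0 in the other 2, and no call of a member changed. Same-numbered samples deviated together with r from -0.258 to 0.297. In shIrf3_LPS against shIrf3 each sample went best with its own number, at r from 0.015 to 0.027. In the other comparisons not every sample did. At 3 samples per group, this check cannot decide whether the numbers pair the samples. At 1 to 65 counts per library, the LPS groups included, Ccl5 is limited by depth, and Ccl4 is below what these libraries can resolve.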

Other observations

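Gene models next to the cluster were counted within 500 kb on either side, 15 below and 10 above it, of which 20 passed the low-count filter in the knockdown arm and 16 in the overexpression arm. With LPS 4 of the 20 rose in shLuc_LPS against shLuc and 4 in shIrf3_LPS against shIrf3, and none fell (edgeR). Of all gene models 4.27% and 4.17% rose. Calls in both were made for 3, all on the upper side beyond Ccl4. The remaining call was uc007koh.1 in shLuc_LPS against shLuc and uc007kog.1 in shIrf3_LPS against shIrf3, and their spans overlap. A gene model can pass the low-count filter through the group where it is high, so the counts of neighbours and their median are no support in themselves. The median log2 fold change of the 20 was 0.09 for each hairpin, where that of all gene models was -0.01 and 0.00. In Irf3_2D against EGFP 3 of the 16 rose, against 0.811% of all gene models, with edgeR adjusted p from 0.0180 to 0.0390. Whether they kept their calls with a library left out was not examined. The calls over all gene models in that comparison fell to 5 without EGFP replicate 3. In shIrf3_LPS against shLuc_LPS 1 of the 20 fell, against 3.31%.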
